A study of Homo sapiens with 9 samples.

Results

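A549, a human lung adenocarcinoma cell line, was transfected for 48 h with 50 nM of scrambled siRNA or of siCyclin K#1, a small interfering RNA against Cyclin K, and 3 libraries of total RNA were sequenced from each group. The scrambled siRNA is the control of the series, and no other agent or genetic change separates the groups. These 6 libraries are part of a series of 9, whose other 3 were transfected with siCyclin K#2, a second siRNA against Cyclin K. The libraries were chosen by their titles, and the genes by the presence of a reference gene name in the deposited table, which left 31127 of 56252 rows. The rows of the same gene were summed to 31080 genes, and 21048 of them had an FPKM, a read density scaled to transcript length and library size, of at least 0.1 in at least 3 of the 9 libraries and were tested. The growth medium is given as RPMI-1640 in the labels and as DMEM in the methods, and the labels do not say whether the 3 libraries of a group come from separate cultures, so that p-values measure the spread between these libraries, which may be technical.

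Cyclin K is a cyclin of transcription rather than of the cell cycle. It binds CDK12 and CDK13, kinases that phosphorylate the carboxy-terminal tail of RNA polymerase II, and these complexes are known for keeping the polymerase moving through long genes and for the expression of DNA repair genes. An siRNA cleaves the mRNA that its guide strand matches along its whole length, while a match to the seed of the guide by itself, bases 2 to 8, can lower other mRNAs in the manner of a microRNA.

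CCNK, the targeted gene, is on chromosome 14 (GRCh38, 99481169 to 99535044, plus strand). The stretch of its mRNA that siCyclin K#1 matches was read from the GENCODE 29 sequence of CCNK-201, a coding transcript with 11 exons. It lies in the coding region at nucleotides 628 to 648, starts in exon 5 at position 99500859 and ends in exon 6 at position 99501363. It is shown because its capitals, the 7 bases that pair with the seed of the guide, are the letters looked for in other mRNAs below.

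CCNK, siCyclin K#1 site: aagcaactcaaagGTGATAAa

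CCNK had 6.90, 7.06 and 7.10 FPKM in the scrambled libraries and 0.891, 0.816 and 0.720 FPKM in the siCyclin K#1 libraries. No siCyclin K#1 library came near the lowest scrambled one, and 11.5% of the scrambled mean was left. This is -2.97 ± 0.10 (SE) as a log2 fold change, with an adjusted p of 7.9e-08 (limma; exact two-sided permutation p = 0.1 over the 6 libraries, the smallest that 3 against 3 allow). Here and below a fold change is the difference of log2(FPKM + 0.1) of siCyclin K#1 minus scrambled, which understates changes of genes with low values, adjusted p-values are from limma with Benjamini-Hochberg adjustment over all 21048 genes, and ± is the SD over 3 libraries (n = 3).

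The depth recovered from the steps of the low values was 31847926 to 33767961 reads in the scrambled libraries and 31333749 to 32956417 in the siCyclin K#1 libraries. Genes at 1 FPKM or more numbered 10941 to 11026 with scrambled siRNA and 11341 to 11480 with siCyclin K#1, so that more genes were detected in every siCyclin K#1 library. Across 11243 genes, libraries of these groups had Pearson correlations of log2 values of 0.981 to 0.986 within a group and 0.895 to 0.902 between them. Of the markers of A549, KRT8 and KRT18 were at 49.7 to 105 and 69.8 to 85.0 FPKM and CDKN2A, which these cells lack, was at most 0.035 FPKM. EPCAM, a general epithelial marker, was at most 0.279 FPKM in any of the 6 libraries. Of the leukocyte markers PTPRC was at most 0.0068 FPKM and CD68 was at 29.98 to 33.7 FPKM in all 6 libraries, and the endothelial markers PECAM1, CDH5 and VWF were at or below 0.043 FPKM.

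A gene counted as called where it differed by more than 3-fold with a raw p below 0.01, as the study's methods set it. Of the 21048 genes, 983 were called (4.67%), 671 higher with siCyclin K#1 (3.19%) and 312 lower (1.48%). The paper reports the opposite balance in Cyclin K-depleted A549 cells, with more genes lower than higher. Its results text states a smaller fold change than its methods, and does not name the siRNA behind its count. The cause of this difference in balance was not tested. All 983 also had an adjusted p under 0.05. With so many genes differing, a raw p below 0.01 was enough for that, so that it adds nothing to the calls. Protein-coding genes were 633 of the 983. The higher share was 68.3% of the calls, and fell to 58.2% (547 higher and 393 lower) under median-ratio rescaling and to 53.5% (498 and 432) under quantile normalization. At an adjusted p under 0.05 and any fold, 5635 genes (26.8%) rose and 3800 (18.1%) fell. Under median-ratio rescaling 4663 rose and 4660 fell, and under quantile normalization 4640 rose and 4588 fell, so that the excess of rises over falls depended on the scaling. The median of all tested genes was 0.10 as deposited and 0.0009 under median-ratio rescaling. Without overlap between the groups, 6735 genes (32%) had all 3 siCyclin K#1 libraries above all 3 scrambled libraries and 4516 (21.5%) had them below. Of the called genes 494 had a mean under 1 FPKM, 334 of them higher and 160 lower.

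**Figure D1:**
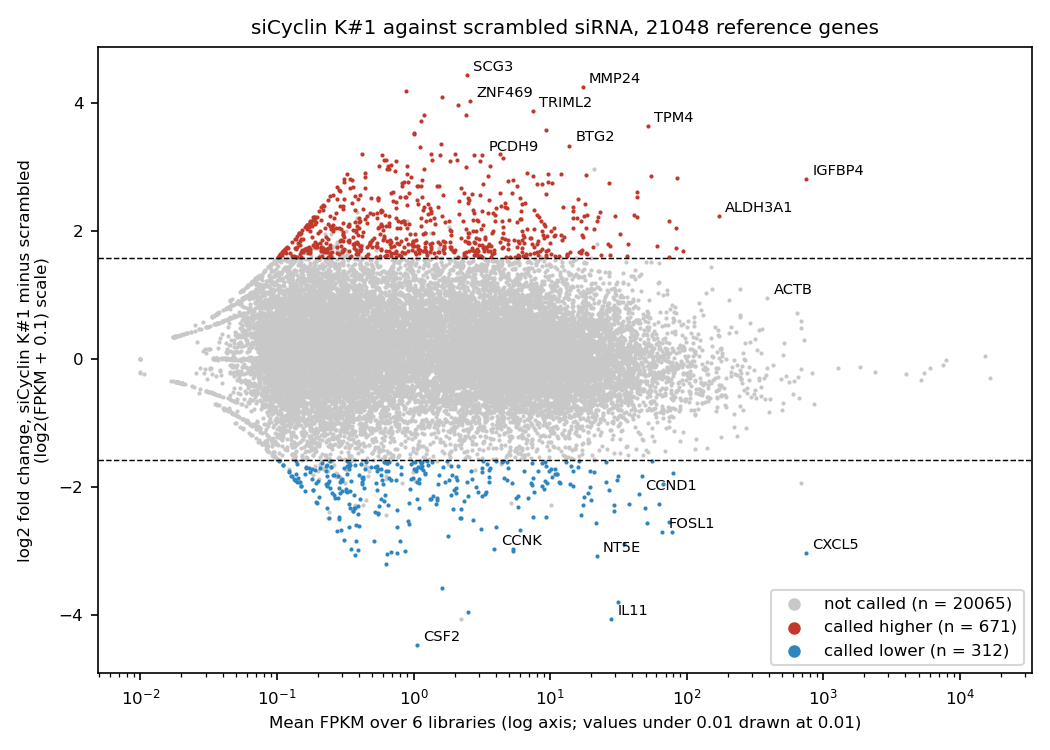
Log2 fold change of siCyclin K#1 minus scrambled (vertical axis) against the mean FPKM over the 6 libraries (horizontal log axis) for 21048 genes. Points past the dashed lines, a fold change of 3, are coloured where called, 671 higher and 312 lower; CXCL5 and IGFBP4 are called at levels above 500 FPKM.

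The 12 largest log2 rises among protein-coding genes with a mean of at least 1 FPKM included several in genes below 0.3 FPKM with scrambled siRNA. SCG3 (ENSG00000104112, chromosome 15, 51681353 to 51721031), which encodes secretogranin III of neuroendocrine secretory granules, had 0.107, 0.114 and 0.158 FPKM in the scrambled libraries and 4.20, 5.42 and 4.72 FPKM with siCyclin K#1 (4.43 ± 0.19 (SE) on the log2 scale, adjusted p = 3.0e-07). Its scrambled values rested on 12, 12 and 17 reads. MMP24 (ENSG00000125966, chromosome 20, 35226654 to 35277000), a membrane-anchored matrix metalloproteinase, went from 1.68, 1.46 and 1.80 to 33.9, 32.3 and 33.0 FPKM (4.25 ± 0.07 (SE), adjusted p = 6.2e-09), the largest rise from a scrambled level above 1 FPKM. TRIML2, a tripartite motif protein reported as a p53 target, had 0.893, 0.937 and 0.788 FPKM with scrambled siRNA and 14, 15.0 and 13.5 FPKM with siCyclin K#1 (3.88). In each of these genes the siCyclin K#1 libraries were several times above the highest scrambled library.

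TPM4, which encodes a tropomyosin that coats actin filaments, was at 6.97, 7.40 and 7.84 FPKM in the scrambled and 122, 62.4 and 107 FPKM in the siCyclin K#1 libraries (3.64 ± 0.26 (SE) on the log2 scale, adjusted p = 6.4e-06). The second siCyclin K#1 library was at little more than 60 FPKM, while the other two were above 100, and all 3 were above scrambled. Among adhesion and cytoskeletal genes, PPL (periplakin, a desmosome-linked cytolinker) rose from 0.237 ± 0.0356 to 4.64 ± 0.0995 FPKM, FLRT3 (a membrane protein with leucine-rich repeats that binds guidance receptors) from 0.170 ± 0.0574 to 4.07 ± 0.166, THSD7A from 0.0755 ± 0.0350 to 2.32 ± 0.137 and EPHA5 (an ephrin receptor) from 0.0767 ± 0.00409 to 1.93 ± 0.208. The zinc finger genes ZNF469 and ZNF467 rose from 0.211 ± 0.0203 to 5.00 ± 0.236 and from 0.0929 ± 0.0449 to 3.16 ± 0.383 FPKM. PALM3 and ELANE (neutrophil elastase) completed the 12, with log2 fold changes of 3.71 and 3.54. The scrambled libraries held 9, 7 and 3 reads of PALM3 and 0, 5 and 3 of ELANE, which limits the precision of both ratios.

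**Figure D2:**
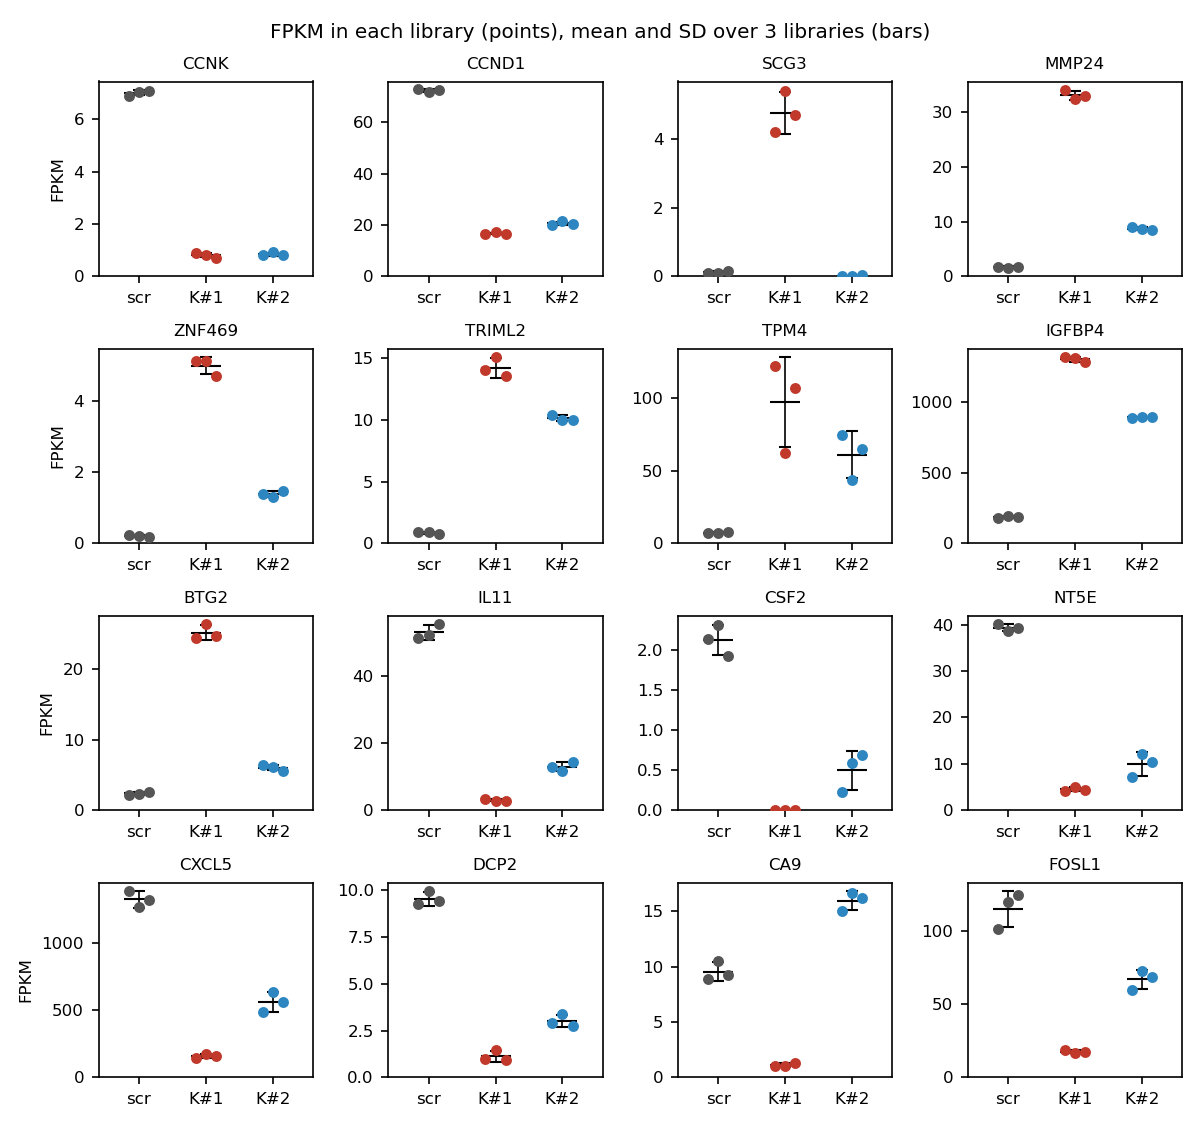
FPKM of 16 genes in each of the 9 libraries (points; scr is scrambled), with the mean and the SD over 3 libraries. In every panel the 3 siCyclin K#1 points lie all above or all below the 3 scrambled points; siCyclin K#2 lies on the far side of scrambled from siCyclin K#1 for CA9 and SCG3.

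The 12 largest falls were taken by the same rule, which leaves out rows that join several genes. CSF2 (ENSG00000164400, chromosome 5, 132073790 to 132076170), which encodes the cytokine GM-CSF, had 2.14, 2.30 and 1.92 FPKM with scrambled siRNA and was listed at 0 in all 3 siCyclin K#1 libraries (adjusted p = 4.7e-06), so that no fold is given. IL11 (ENSG00000095752, chromosome 19, 55364389 to 55370463), a cytokine of the IL-6 family, went from 51.5, 52.2 and 55.5 FPKM to 3.49, 2.87 and 2.89 FPKM (-4.07 ± 0.10 (SE) on the log2 scale, adjusted p = 1.9e-08). CXCL5 (ENSG00000163735, chromosome 4, 73995642 to 73998779), a chemokine that attracts neutrophils, had 1387, 1266 and 1315 FPKM in the scrambled libraries and 147, 175 and 163 FPKM with siCyclin K#1 (-3.03, adjusted p = 7.9e-08). The scrambled mean of CXCL5 was 8.19 times the siCyclin K#1 mean. NT5E, which encodes the ectonucleotidase CD73 that makes adenosine, had 40.2, 38.6 and 39.3 FPKM with scrambled siRNA and 4.18, 5.08 and 4.42 FPKM with siCyclin K#1 (-3.09, adjusted p = 1.4e-06).

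The other falls of this size were in genes of several kinds. DCP2, the enzyme that removes the cap of mRNAs, had 9.23, 9.94 and 9.42 FPKM with scrambled siRNA and 0.959, 1.46 and 0.936 FPKM with siCyclin K#1 (-3.01 ± 0.15 (SE), adjusted p = 8.9e-07). FOSL1, which encodes the AP-1 subunit FRA1, went from 101, 119 and 125 FPKM to 18.5, 16.5 and 17.4 FPKM (-2.71, adjusted p = 1.1e-07). PPIF (cyclophilin D of the mitochondrial permeability pore) fell from 135 ± 5.17 to 20.6 ± 1.78 FPKM, PHLDA2 from 61.3 ± 2.15 to 8.48 ± 2.97, CA9 (carbonic anhydrase IX, a hypoxia marker) from 9.56 ± 0.857 to 1.14 ± 0.179, RNF182 (a ubiquitin ligase) from 10.4 ± 0.359 to 1.56 ± 0.258 and IGFN1 from 3.05 ± 0.470 to 0.164 ± 0.0366. With CCNK these are the 12, and ATP5MD, on a row joined with MIR1307, fell by more than 10 of them (-3.79) but is outside the rule.

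By the size of the change in FPKM itself, the largest rise came in IGFBP4, which encodes a secreted binding protein of insulin-like growth factors, with 179, 191 and 188 FPKM in the scrambled and 1321, 1311 and 1287 FPKM in the siCyclin K#1 libraries (2.81 ± 0.03 (SE), adjusted p = 3.0e-10). TMSB4X (486 to 802 FPKM), ACTB (265 to 514) and ACTG1 (573 to 797), which encode thymosin beta 4 and the cytoplasmic actins, rose by smaller ratios from a high level, as did the aldehyde dehydrogenases ALDH1A1 (549.9 to 826) and ALDH3A1 (60.1 to 282). The largest losses of FPKM were in the mitochondrial rRNA MT-RNR2, from 18201 ± 336 to 14805 ± 523, in MT-ND2, MT-ND1 and the joined row of MT-ND4L, MT-ND4, MT-ND5 and MT-CYB, in FTL (ferritin light chain) and in CXCL5. The log2 fold changes of the 5 other than CXCL5 were -0.30, -0.32, -0.14, -0.23 and -0.22. Under quantile normalization, which gives the most abundant genes the same values in every library, the adjusted p of MT-ND1, the joined row and MT-ND2 no longer passed and FTL changed sign (0.02); MT-ND1 also failed without a filter, without a variance trend and when any of 4 libraries was left out. Genes below 0.1 FPKM in all 3 scrambled libraries and at 1 FPKM or more in all 3 siCyclin K#1 libraries were only EPHA5 (chromosome 4, 65319563 to 65670495) and AC104137.1, a non-coding RNA of chromosome 4 (65702202 to 65705553) with 0 reads in the scrambled libraries and 22, 16 and 28 with siCyclin K#1. In the reverse direction there were 3, CSF2, RAET1E (an NKG2D ligand, 1.22 ± 0.132 to 0.0445 ± 0.0302 FPKM) and the non-coding RNA AC090833.1 (1.22 ± 0.114 to 0.0611 ± 0.0268 FPKM).

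Gene families and pathways were described with 43 gene lists, each by the number of tested members that rose or fell at an adjusted p under 0.05 and by the median log2 fold change of all its tested members, with no test of the list itself. The counts use the values as deposited. Beside them, 37.8% of the 11475 tested protein-coding genes rose, 24.1% fell, and their median was 0.14. Of the protein-coding genes 5.52% were called, 476 higher and 157 lower, so that calls leaned to the higher side in general. The sign of the median held under median-ratio rescaling and quantile normalization in 37 of the 43 lists, and the other 6 are named where they appear. Median-ratio rescaling lowered the median of all genes from 0.10 to 0.0009, and medians of the lists are read against that shift. A pseudocount of 1 or a mean of at least 1 FPKM also moved the medians of lists with many low genes, and values that moved by over 1.5 times are given beside them. A member that passed the filter on low values only through siCyclin K#1 could count as a rise but hardly as a fall. For a member that passed only through scrambled siRNA the reverse holds.

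**Figure D3:**
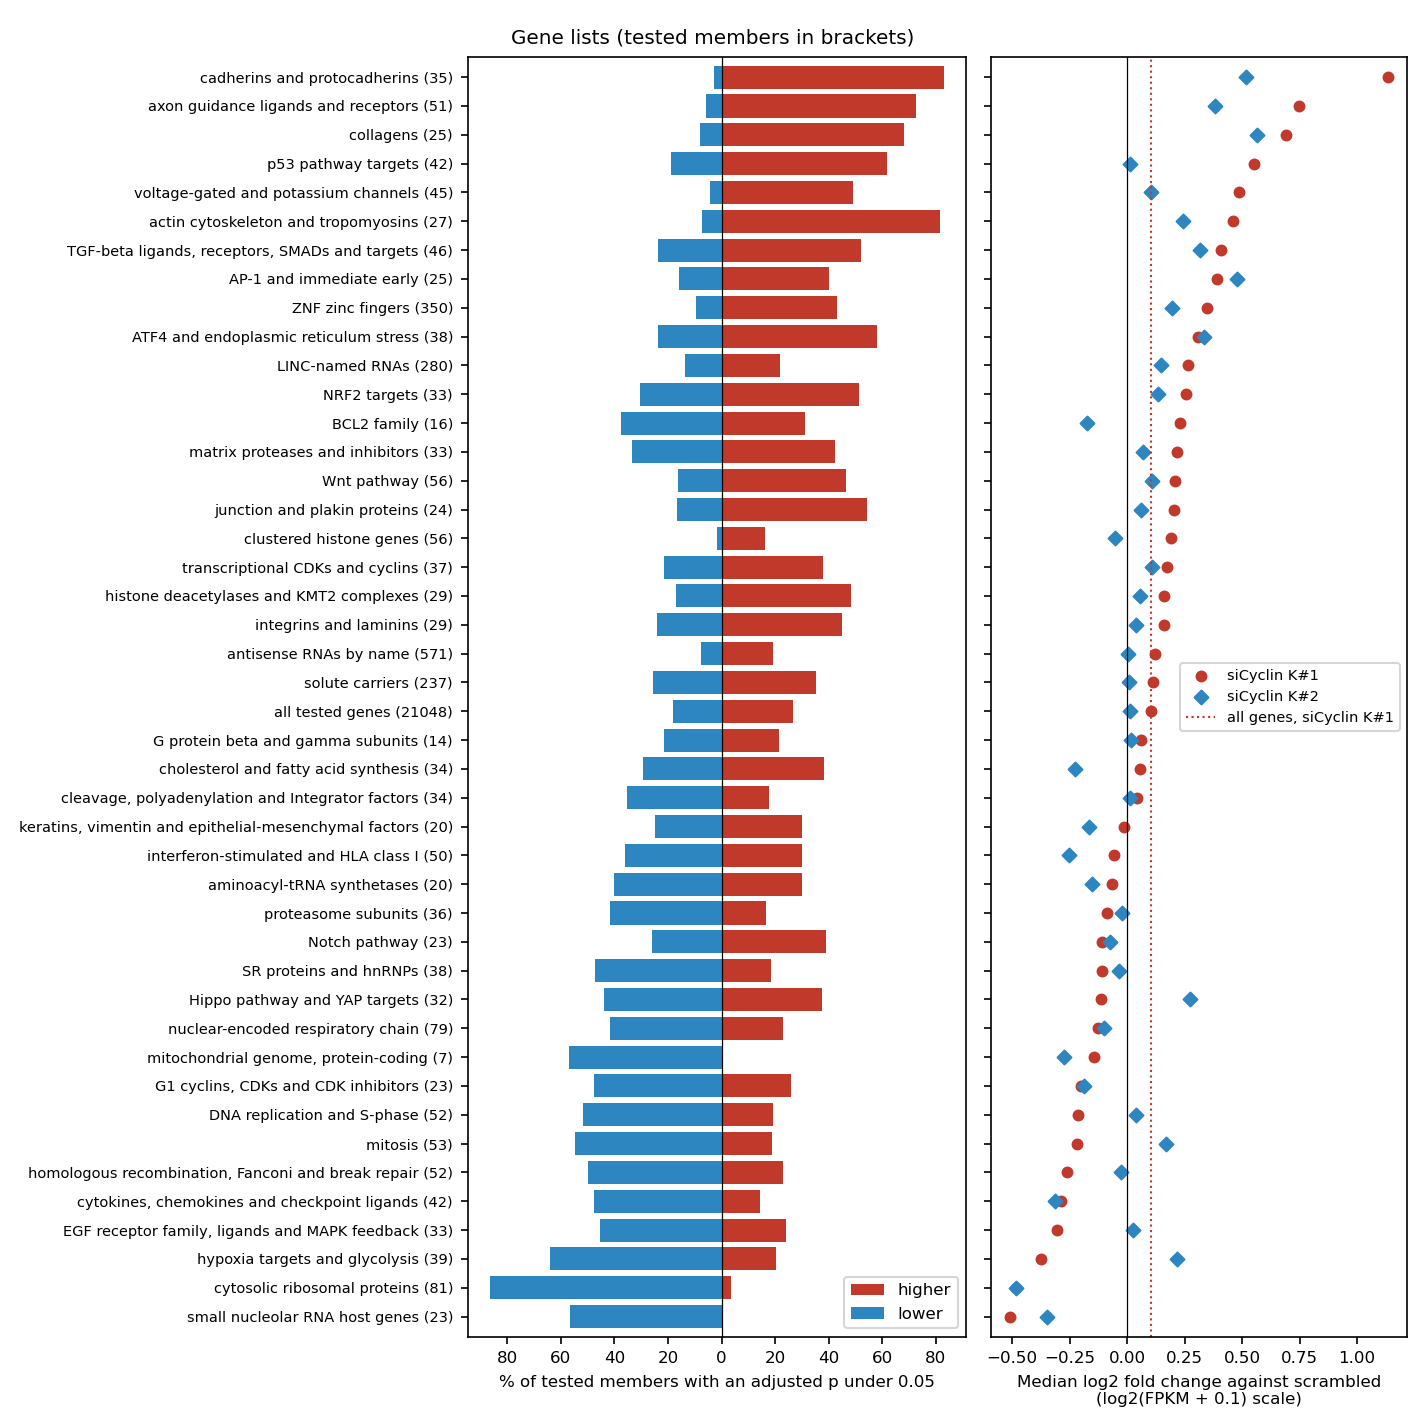
Left, the percentage of tested members of each list that rose (red, to the right) or fell (blue, to the left) at an adjusted p under 0.05 with siCyclin K#1. Right, the median log2 fold change against scrambled with each siRNA, with the median of all genes at 0.10 dotted; cadherins and protocadherins (1.13) have the highest and small nucleolar RNA host genes (-0.51) the lowest median with siCyclin K#1, whereas with a pseudocount of 1 p53 targets (0.47) and actin genes (0.45) are above cadherins (0.40) and ribosomal proteins reach -0.48.

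In the machinery that Cyclin K belongs to, the transcriptional CDKs and cyclins, 14 of 37 tested members rose (37.8%) and 8 fell (21.6%), with a median of 0.17. These shares were near the 37.8% and 24.1% of protein-coding genes. CDK12, a kinase partner of Cyclin K, and CDK9, the kinase of P-TEFb, rose from 8.12, 8.27 and 7.32 to 19.4, 19.8 and 19.8 FPKM (1.31, adjusted p = 2.8e-06) and from 4.57 ± 0.164 to 9.21 ± 0.577 FPKM (1.0, adjusted p = 7.2e-06), and their groups did not overlap. CDK13 had 2.62, 2.46 and 2.89 FPKM with scrambled siRNA and 3.02, 2.92 and 3.23 with siCyclin K#1, a difference that did not pass the test (0.20, adjusted p = 0.071), although it passed with testing limited to a mean of at least 1 FPKM, without the third scrambled library and in limma-voom on recovered reads. HEXIM1, which holds P-TEFb inactive with 7SK RNA, rose from 27.4 ± 1.25 to 93.5 ± 2.65 FPKM (1.77). HEXIM1 and CCNK were the only members called, 5.41% of the list beside 5.52% of protein-coding genes. CDK19, a Mediator kinase, rose from 1.67 ± 0.354 to 5.05 ± 0.175. Of 34 cleavage, polyadenylation and Integrator factors, 6 rose and 12 fell (median 0.04, -0.08 under median-ratio rescaling, -0.04 under quantile normalization and 0.01 to 0.02 with 1 library left out), among them NUDT21 (36.7 ± 0.950 to 21.8 ± 0.851 FPKM), which sets the choice of distal poly(A) sites, CSTF3 (-0.87), INTS6 (-0.77) and INTS10 (0.95). SR proteins and hnRNPs, which regulate splicing, had 7 members higher and 18 lower of 38 (median -0.11), with HNRNPF at 148 ± 2.01 and 80.9 ± 1.39 FPKM, SRSF1 at -0.68, HNRNPM at 0.89 and HNRNPH3 at 0.91 on the log2 scale.

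Among histone deacetylases and KMT2 complexes 14 of 29 rose and 5 fell (median 0.16). HDAC5 went from 1.95 ± 0.0517 to 11.1 ± 0.771 FPKM (2.44) and HDAC1 from 20.8, 20.4 and 20.5 to 47.5, 47.4 and 48.2 FPKM (1.21, adjusted p = 4.0e-08), while SIRT2 and SIRT5 rose by 1.24 and 1.31. The 5 that fell were SIRT4 (-1.55), SETD1B (-0.76), WDR5 (-0.25), ASH2L (-0.20) and the joined row of MEMO1 and DPY30 (-0.17), so that subunits of the H3K4 methyltransferase complexes are 4 of them, while SETD1A rose from 5.32 ± 0.377 to 7.22 ± 0.158 FPKM. Of 350 ZNF zinc finger genes, a large family of DNA-binding proteins, 151 rose and 34 fell (median 0.35, 0.19 with a pseudocount of 1 and 0.17 under quantile normalization), and 18 were called, all higher, which is 5.14% beside 5.52% of protein-coding genes. ZNF608 (0.724 ± 0.0811 to 6.54 ± 0.171 FPKM) followed ZNF467 and ZNF469.

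The cell cycle lists leaned to the lower side. G1 cyclins, CDKs and CDK inhibitors had 6 members higher and 11 lower of 23 (median -0.20). CCND1, which encodes Cyclin D1, had 73.1, 72.0 and 72.6 FPKM with scrambled siRNA and 16.6, 17.1 and 16.5 FPKM with siCyclin K#1 (-2.11 ± 0.03 (SE), adjusted p = 5.3e-09), without overlap and with 23.1% of the scrambled mean left. CCNE2, a cyclin of the entry into S phase, fell from 4.63, 4.47 and 4.84 to 1.02, 1.01 and 1.22 FPKM (-2.01, adjusted p = 3.1e-06), and the inhibitor CDKN1B (p27) from 40.1 ± 1.2 to 17.4 ± 0.950 FPKM, while RBL2, a pocket protein of quiescence, rose from 6.46 ± 0.165 to 13.2 ± 0.525. In DNA replication and S phase 10 of 52 rose and 27 fell (median -0.22), with CCNE2 and DBF4 called (3.85%, beside 5.52% of protein-coding genes). DBF4, the activator of the CDC7 kinase that fires origins, had 6.16, 5.90 and 6.22 FPKM with scrambled siRNA and 1.89, 2.11 and 1.85 with siCyclin K#1. RFC4, a clamp loader subunit, fell by 0.97 on the log2 scale, and the row that joins RRM2, a ribonucleotide reductase subunit, with AC007240.1 and C2orf48 fell from 23.1 ± 0.319 to 11.2 ± 0.633 FPKM.

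Of 53 mitosis genes 10 rose and 29 fell (median -0.22), and 1.89% were called, beside 5.52% of protein-coding genes. CDC20, which activates the anaphase-promoting complex, was the only one called. It was at 85.6, 81.8 and 83.0 FPKM with scrambled siRNA and 28.1, 27.0 and 27.2 FPKM with siCyclin K#1 (-1.60, adjusted p = 1.2e-08). AURKB, a kinase of chromosome segregation, and CDCA3 fell by 0.91 and 1.11 on the log2 scale. CENPF, a kinetochore protein, moved the other way, from 21.7, 23.3 and 22.8 FPKM to 49.9, 52.8 and 51.1 FPKM (1.18, adjusted p = 6.3e-08). MKI67, the proliferation marker Ki-67, had 56.2, 57.1 and 56.6 FPKM with scrambled siRNA and 46.7, 47.7 and 49.0 FPKM with siCyclin K#1 (-0.25). Clustered histone genes had 9 members higher and 1 lower, HIST2H4B (-1.0), of 56 (median 0.19, 0.10 with a pseudocount of 1 and 0.11 without the second siCyclin K#1 library), and 46 did not pass. Those that rose included HIST1H2BD (2.18 ± 0.320 to 6.03 ± 0.410 FPKM), HIST1H2BK (7.62 ± 0.394 to 15.9 ± 1.09), HIST1H2AC and HIST2H2BE, and near-identical copies of these genes can share reads. HIST1H2BH (0.0295 FPKM with scrambled siRNA, 0.457 with siCyclin K#1), also counted as a rise, needed its siCyclin K#1 libraries to pass the filter on low values.

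Of 52 genes of homologous recombination, the Fanconi pathway and break repair, 12 rose and 26 fell (median -0.26), and 0 were called at a fold change over 3. Among protein-coding genes 5.52% were called. H2AFX, the histone that marks DNA breaks once phosphorylated, had 161, 172 and 171 FPKM with scrambled siRNA and 70.9, 60.6 and 59.8 FPKM with siCyclin K#1 (-1.40, adjusted p = 3.9e-07). RBBP8 (CtIP, which starts the resection of broken ends) fell from 8.78, 8.46 and 8.34 to 3.33, 3.26 and 3.03 FPKM (-1.38, adjusted p = 8.9e-07), and XRCC3 from 5.89 ± 0.651 to 2.80 ± 0.339. RAD52, on a row joined with AC004803.1, rose from 0.679 ± 0.0412 to 1.92 ± 0.0973 FPKM. Of repair genes that the study names, the checkpoint kinase gene ATR fell from 5.07, 5.11 and 4.90 to 3.69, 3.62 and 3.40 FPKM (-0.48, adjusted p = 1.2e-04) and LIG4, the ligase of end joining, from 5.78 ± 1.06 to 3.20 ± 0.461 FPKM (-0.83). FANCI, with 19.9, 21.0 and 20.1 FPKM and 18.5, 19.5 and 20.2 FPKM, overlapped between the groups (-0.07, adjusted p = 0.29; -0.19 and past the threshold under median-ratio rescaling).

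Targets of p53, the stress-activated transcription factor, had 26 of 42 tested members higher and 8 lower (median 0.55). Of the 42, 8 were called (19.0%, against 5.52% of protein-coding genes), all higher. BTG2, an antiproliferative gene, had 2.22, 2.37 and 2.64 FPKM with scrambled siRNA and 24.4, 26.4 and 24.8 FPKM with siCyclin K#1 (3.33 ± 0.08 (SE), adjusted p = 1.7e-08). BBC3, which encodes the death protein PUMA, rose from 1.26, 1.67 and 1.21 to 9.40, 6.37 and 8.08 FPKM (2.44), and FDXR, a mitochondrial reductase, from 7.39, 7.83 and 7.95 to 36.3, 40.1 and 38.5 FPKM (2.29). The groups of these genes were far apart. In the BCL2 family 5 of 16 rose and 6 fell (median 0.23, 0.04 at a mean of at least 1 FPKM, 0.13 with a pseudocount of 1 and 0.15 without the third siCyclin K#1 library). Besides BBC3, the pro-apoptotic BMF (9.0 ± 1.0 to 19.0 ± 0.343 FPKM), BIK and BAX and the survival gene BCL2L1 (0.91, 0.17 and 0.51) rose, while BCL2A1, a survival gene, and BAK1, a pore-forming death gene, fell from 10.9 ± 1.38 to 3.67 ± 0.465 and from 16.9 ± 0.236 to 8.33 ± 0.527 FPKM.

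Other stress lists were read in the same way. Of 38 genes of ATF4 and endoplasmic reticulum stress 22 rose and 9 fell (median 0.31). The 4 called (10.5%, against 5.52% of protein-coding genes) were NUPR1, SESN2, DDIT4 and ATF3. SESN2 and DDIT4, which restrain mTORC1, had 3.04, 3.36 and 2.96 against 14.4, 14.3 and 13.8 FPKM and 29.9, 34.8 and 33.6 against 127, 139 and 140.5 FPKM. Of 33 NRF2 targets, the antioxidant genes that KEAP1-mutant A549 cells express strongly, 17 rose and 10 fell (median 0.26). HMOX1 (heme oxygenase 1) rose from 15.2, 14 and 13.7 to 66.1, 72.2 and 66.5 FPKM (2.25, adjusted p = 2.9e-08), and AKR1C2 from 81.0 ± 10.2 to 219 ± 29.8, whereas SLC7A11, the cystine transporter, fell from 56.9, 52.1 and 56.2 to 18.9, 19.3 and 19.7 FPKM (-1.5, adjusted p = 4.0e-08). AKR1C2 has close paralogs with which reads can be shared. Of 25 AP-1 and immediate early genes 10 rose (40%, near the 37.8% of protein-coding genes) and 4 fell (median 0.39, 0.15 at a mean of at least 1 FPKM and 0.19 with a pseudocount of 1), with the nuclear receptor gene NR4A1 at 0.825 ± 0.0818 and 4.61 ± 1.0 FPKM and FOSL1, above, the only one called lower. The others that fell were IER3, IER5 and MAFF (-0.58, -0.30 and -0.70).

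The list with the highest share of members lower was that of cytosolic ribosomal proteins, of which 70 of 81 fell (86.4%) and 3 rose (median -0.48, -0.60 under median-ratio rescaling and -0.36 under quantile normalization). RPL9 fell from 18.9, 19.7 and 19.8 to 8.99, 11.1 and 11.3 FPKM (-0.90, adjusted p = 5.3e-05), and the row of RPL23 with 2 small nucleolar RNAs from 148 ± 17.0 to 80.5 ± 8.96. The 3 that rose were RPL26L1 (8.29, 7.77 and 7.47 to 38.2, 36.1 and 36.0 FPKM, 2.22, adjusted p = 1.6e-08), RPS27L (0.67), which is both a ribosomal protein paralog and a known p53 target, and RPL11 (0.26). RPL26L1 is a close copy of RPL26, and ribosomal protein genes have many processed pseudogenes, so that single values depend on how reads were shared; 22 of the 81 rows join several genes. The 23 small nucleolar RNA host genes, whose spliced RNAs, like ribosomal protein mRNAs, often start with a terminal oligopyrimidine tract, had 13 members lower and 0 higher (median -0.51). GAS5 fell from 26.9, 26.6 and 25.4 to 12.1, 11.8 and 11.7 FPKM (-1.14, adjusted p = 2.6e-07), SNHG16 from 26.7 ± 0.364 to 11 ± 0.429 and SNHG26 from 1.60 ± 0.352 to 0.504 ± 0.0276, and 14 of the 23 rows join several genes.

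Of 79 nuclear-encoded respiratory chain genes 18 rose and 33 fell (median -0.13). ATP5MD, a small ATP synthase subunit on a row with MIR1307, fell from 60.7, 60.4 and 56.0 to 3.89, 4.69 and 3.96 FPKM (-3.79, adjusted p = 6.8e-09), and NDUFA5 of complex I from 2.86, 3.04 and 2.93 to 0.706, 0.687 and 0.761 FPKM (-1.90). The groups of both genes did not overlap. The 7 rows of protein-coding genes of the mitochondrial genome had 4 lower, MT-ND1, MT-ND2, MT-ND3 and the joined row, and 0 higher (median -0.14, 0.00 under quantile normalization and -0.26 under median-ratio rescaling). The adjusted p of MT-ND3 (-0.14) no longer passed under quantile normalization, with the replicate block, without a filter, without a variance trend and when any of 4 libraries was left out. Proteasome subunits had 6 of 36 higher and 15 lower (median -0.09), with PSMC3 at 1.08, PSMD12 at -0.93, and the immunoproteasome rows of PSMB10 and PSMB9, which are joined with overlapping genes, at -1.28 and -0.83. Of 20 aminoacyl-tRNA synthetases 6 rose and 8 fell (median -0.07, -0.11 without the first siCyclin K#1 library), from -0.72 for TARS to 0.63 for SARS.

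Hypoxia targets and glycolysis genes had 8 of 39 members higher and 25 lower (64.1%, median -0.37). CA9 had 8.90, 10.5 and 9.25 FPKM with scrambled siRNA and 1.04, 1.03 and 1.34 FPKM with siCyclin K#1 (-2.97, adjusted p = 1.3e-07), and EGLN3, an oxygen-sensing prolyl hydroxylase, fell from 5.50 ± 0.697 to 1.59 ± 0.207 FPKM. PFKL, the liver type of phosphofructokinase, was called higher, from 3.89, 4.02 and 4.24 to 13.2, 13.8 and 13.5 FPKM (1.71), and LOX rose from 1.60 ± 0.131 to 3.82 ± 0.365. In cholesterol and fatty acid synthesis 13 of 34 rose and 10 fell (median 0.06, -0.06 under median-ratio rescaling, and 0.09 and 0.03 without the second or the third scrambled library). Called members made up 5.88% of the list, beside 5.52% of protein-coding genes. The sterol enzymes MSMO1 and IDI1 were called lower, MSMO1 from 38.2, 36.5 and 37.0 to 7.0, 5.37 and 6.37 FPKM (-2.56, adjusted p = 8.3e-08) and IDI1 from 30.3 ± 7.09 to 8.75 ± 0.826, and the sterol carrier STARD4 fell from 12.5 ± 0.709 to 4.99 ± 0.0913, while PMVK of the same pathway rose from 8.88 ± 1.42 to 22.3 ± 2.13.

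Cadherins, actin-related genes and axon guidance genes had the largest shares of members higher among the 43 lists. Of 35 tested cadherins and protocadherins, the calcium-dependent adhesion receptors, 29 rose (82.9%) and 1 fell, CDHR3 (-0.59), with a median of 1.13 (1.05 under median-ratio rescaling, 0.97 under quantile normalization and 0.40 with a pseudocount of 1). PCDH9 had 0.564, 0.537 and 0.538 FPKM with scrambled siRNA and 6.01, 5.67 and 5.71 FPKM with siCyclin K#1 (3.19, adjusted p = 1.7e-08), PCDH10 rose from 2.24 ± 0.0589 to 6.68 ± 0.187, CELSR3 from 2.91 ± 0.149 to 7.87 ± 0.205 and CDH4 from 0.872 ± 0.0929 to 2.86 ± 0.960. Only 35 of the 90 listed genes passed the filter on low values, 6 rows join several genes, and a member that is used with siCyclin K#1 alone could pass through it. Of 25 collagens 17 rose and 2 fell (median 0.69, 0.37 with a pseudocount of 1). These 25 of 39 listed collagens passed the filter. COL5A3 (0 FPKM with scrambled siRNA, 0.646 with siCyclin K#1) needed its siCyclin K#1 libraries to pass. COL1A1 had 1.79, 2.21 and 2.10 FPKM with scrambled siRNA and 13.7, 14.7 and 13.7 FPKM with siCyclin K#1 (2.73), COL5A2 rose from 10.4 ± 0.427 to 49.5 ± 6.92, and COL4A1, a basement membrane collagen, from 38.8, 37.6 and 39.2 to 130.2, 124 and 132 FPKM (1.74, adjusted p = 1.6e-08). Of 5 fibroblast markers, COL1A1 and LUM (0.297 to 0.397 FPKM in the scrambled and 1.61 to 2.70 FPKM in the siCyclin K#1 libraries) had higher levels. DCN (0.0171 to 0.0312 and 0.0685 to 0.0919 FPKM) and PDGFRB (0.0924 to 0.108 and 0.117 to 0.136 FPKM) were also higher in all 3 siCyclin K#1 libraries, at low levels, and COL1A2 was at most 0.0111 FPKM in any library. The part of these markers in the change of the collagens was not tested. Both collagens that fell, COL13A1 (-0.83) and COL17A1 (-0.98), are transmembrane types.

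Integrins and laminins had 13 of 29 members higher and 7 lower (median 0.16, 0.07 with a pseudocount of 1, 0.10 without the third scrambled and 0.24 without the second siCyclin K#1 library), with ITGA10 at 0.761, 0.814 and 0.688 and 8.30, 6.61 and 8.41 FPKM (3.20), ITGB4 at 3.35 ± 0.197 and 14.8 ± 0.354 and LAMB2 at 6.52 ± 0.215 and 20.3 ± 0.495. Matrix proteases and inhibitors had 14 of 33 higher and 11 lower (median 0.21, 0.05 with a pseudocount of 1, 0.11 at a mean of at least 1 FPKM and 0.11 without the third scrambled library); ADAMTS15 followed MMP24, from 2.33, 2.34 and 2.52 to 17.7, 15.3 and 17.5 FPKM (2.76), and MMP19 fell from 2.56 ± 0.311 to 0.736 ± 0.171. Junction and plakin proteins had 13 of 24 higher and 4 lower (median 0.20). JUP (plakoglobin) had 4.85, 8.98 and 9.17 FPKM with scrambled siRNA and 20.4, 21.8 and 22.4 with siCyclin K#1 (1.53), and CLDN1 (claudin 1) fell from 23.9 ± 1.44 to 11 ± 0.539. Among keratins, vimentin and factors of the epithelial-mesenchymal transition 6 of 20 rose and 5 fell (median -0.01, 0.003 at a mean of at least 1 FPKM, -0.007 with a pseudocount of 1 and from -0.10 to 0.09 with 1 library left out), with CDH1 (E-cadherin) at 1.64 ± 0.193 and 3.88 ± 0.970 FPKM, FN1 at 28.0 ± 1.68 and 53.3 ± 1.26, ZEB2, a repressor of CDH1, at 1.65 ± 0.0121 and 0.813 ± 0.111 and the hair keratin gene KRT86 at 111 ± 2.39 and 51.2 ± 6.74.

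Of 27 genes of the actin cytoskeleton and tropomyosins 22 rose (81.5%) and 2 fell, among them PFN1 (-0.25), with a median of 0.46. CNN1 (0.0109 FPKM with scrambled siRNA, 0.670 with siCyclin K#1), counted as a rise, needed its siCyclin K#1 libraries to pass the filter on low values. ACTA2, the smooth muscle actin, had 0.567, 0.433 and 0.425 FPKM with scrambled siRNA and 5.21, 5.00 and 5.05 FPKM with siCyclin K#1 (3.18, adjusted p = 9.5e-08), and LIMA1 and CNN2 rose from 3.24 ± 0.400 to 11.4 ± 0.357 and from 13.9 ± 1.01 to 30.5 ± 0.383. Axon guidance ligands and receptors, which also steer epithelial cells, had 37 of 51 members higher (72.5%) and 3 lower (median 0.75, 0.35 with a pseudocount of 1). EFNA1, an ephrin ligand, rose from 1.19, 1.12 and 1.22 to 8.22, 8.15 and 9.67 FPKM (2.77) and SEMA6B from 6.36 ± 0.535 to 30.7 ± 1.06, whereas EPHA2, the receptor of EFNA1, fell from 49.4, 48.4 and 50 to 9.51, 9.32 and 9.51 FPKM (-2.37, adjusted p = 1.8e-08). NRP2 and EPHB2 were the others that fell, by 0.22 and 0.31 on the log2 scale. The 51 are those of 64 listed axon guidance genes that passed the filter on low values. Voltage-gated and potassium channels had 22 of 45 higher and 2 lower, KCNQ3 (-3.04) and KCNV2 (-1.98), with a median of 0.49 (0.19 with a pseudocount of 1), and CACNG4 and KCNF1 rose from 0.469 ± 0.0770 to 1.75 ± 0.218 and from 1.3 ± 0.250 to 3.12 ± 0.235 FPKM. Only 45 of the 89 listed channels passed the filter on low values. Of these SCN3B (0 FPKM with scrambled siRNA, 0.329 with siCyclin K#1) and KCNC1 (0.0206 and 0.299) passed through siCyclin K#1 alone. Solute carriers, 237 tested, stood near all genes with 84 higher and 61 lower (median 0.11, 0.07 at a mean of at least 1 FPKM and -0.02 under quantile normalization).

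The Wnt pathway, which the study followed up, had 26 of 56 tested members higher and 9 lower (median 0.21, 0.35 without the first siCyclin K#1 library, 0.31 without the third scrambled library and 0.10 under median-ratio rescaling). Of the 56, 6 were called (10.7%, against 5.52% of protein-coding genes), all higher. The gene families that the study shows were chosen on these libraries, so that they are not independent evidence of a direction. SFRP4, a secreted Wnt antagonist, had 0.361, 0.279 and 0.282 FPKM with scrambled siRNA and 3.14, 3.58 and 3.42 FPKM with siCyclin K#1 (3.10). TCF7L1, a repressing partner of β-catenin, rose from 0.386 ± 0.0330 to 2.31 ± 0.163 FPKM, CTNNBIP1, an inhibitor of β-catenin, from 1.32 ± 0.180 to 3.95 ± 0.222 and the corepressor TLE4, on a row with AL353813.1, from 0.815 ± 0.0357 to 5.32 ± 0.361. Of the ligands, WNT9A had 0.172, 0.198 and 0.396 FPKM and 0.996, 1.09 and 0.925 FPKM (1.69, adjusted p = 3.2e-04) and WNT10B 1.41, 1.84 and 1.62 FPKM and 0.846, 0.643 and 0.554 FPKM (-1.15, adjusted p = 0.0014) with scrambled siRNA and siCyclin K#1. CTNNB1, the gene of β-catenin, had 23.2, 24.8 and 23.2 FPKM with scrambled siRNA and 22.1, 23.6 and 23.9 FPKM with siCyclin K#1, and the groups overlapped (-0.03, adjusted p = 0.6; -0.15 and past the threshold under median-ratio rescaling). CTNNA2, an α-catenin on a row with AC011754.1, rose from 0.220 ± 0.0572 to 2.10 ± 0.263 FPKM. MYC, a target of β-catenin, had 1.63, 16.7 and 1.76 FPKM in the scrambled and 25.2, 2.78 and 2.48 FPKM in the siCyclin K#1 libraries. One library of each group was far above the other two, so that the groups overlapped and no change was detectable (0.60 ± 1.24 (SE), adjusted p = 0.74). G protein beta and gamma subunits had 3 of 14 higher and 3 lower (median 0.06, -0.04 under median-ratio rescaling, -0.002 under quantile normalization, 0.04 with a pseudocount of 1 and 0.02 to 0.13 with 1 library left out), among them GNG7, whose scrambled values rested on 3, 9 and 5 reads (2.03), GNG3 (1.74 ± 0.229 to 0.829 ± 0.115 FPKM), GNG11, GNG12 and GNG13 (0.94, 0.32 and -0.68) and GNB4 (9.02, 9.38 and 10.2 to 1.95, 2.02 and 2.26 FPKM, -2.14, adjusted p = 1.4e-07).

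TGF-beta ligands, receptors, SMADs and targets had 24 of 46 members higher and 11 lower (median 0.41, 0.22 at a mean of at least 1 FPKM and 0.26 with a pseudocount of 1). Of the 46, 7 were called (15.2%, against 5.52% of protein-coding genes), all higher. ID3, a target gene, rose from 18.3, 14.9 and 17.1 to 59.7, 57.7 and 56.8 FPKM (1.79), the ligand-storing protein LTBP1 from 2.94 ± 0.293 to 12.3 ± 0.290, the receptor TGFBR1 from 8.15 ± 3.81 to 25.8 ± 10.3 and the effector SMAD3 from 13.2 ± 0.511 to 41.6 ± 7.89. In the Hippo pathway, 12 of 32 genes rose and 14 fell (median -0.12, -0.17 without the second scrambled and -0.06 without the second siCyclin K#1 library). Its effector TAZ, encoded by WWTR1, fell from 63.9, 60.5 and 64.3 to 13.3, 12.7 and 13 FPKM (-2.26, adjusted p = 6.8e-09) and the DNA-binding partner TEAD1 from 32.4, 30.3 and 32.0 to 10.3, 12.6 and 9.05 FPKM (-1.57), while AMOTL1, an inhibitor of both YAP and TAZ, rose from 2.32 ± 0.125 to 7.16 ± 0.286. The Notch pathway had 9 of 23 higher and 6 lower (median -0.11, 0.25 at a mean of at least 1 FPKM, -0.02 with a pseudocount of 1, and 0.12, 0.01 and 0.06 without the first scrambled, the first siCyclin K#1 or the second siCyclin K#1 library), with the receptor NOTCH3 (3.94 ± 0.0689 to 10.7 ± 0.434 FPKM) and the target HES1 (1.56 ± 0.242 to 3.82 ± 0.235) higher and the transcription factor RBPJ (7.02 ± 0.283 to 2.98 ± 0.0554) and NRARP (3.44 ± 0.325 to 1.22 ± 0.341) lower.

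Of 33 genes of the EGF receptor family, its ligands and the feedback of MAPK 8 rose and 15 fell (median -0.31). The feedback inhibitors DUSP4 and SPRY4 fell from 21.5, 22.7 and 22.5 to 5.83, 5.55 and 5.67 FPKM (-1.95, adjusted p = 8.1e-08) and from 4.31 ± 1.01 to 1.08 ± 0.116, and the ligand EREG (epiregulin) from 7.85, 7.40 and 7.43 to 2.12, 2.48 and 2.21 FPKM (-1.70). Cytokines, chemokines and checkpoint ligands had 6 of 42 higher and 20 lower (median -0.29). Of the 42, 19.0% were called, against 5.52% of protein-coding genes. These were 7 called lower and only the receptor IL1R1 called higher (1.53 to 8.95 FPKM). Of 50 interferon-stimulated and HLA class I genes 15 rose and 18 fell (median -0.06, -0.14 at a mean of at least 1 FPKM). TAP1, the peptide transporter of antigen presentation, fell from 8.99, 9.10 and 9.32 to 3.09, 2.91 and 3.05 FPKM (-1.57, adjusted p = 5.2e-08) and B2M, the light chain of HLA class I, from 68.1, 62.7 and 67.2 to 16.1, 40.3 and 31.5 FPKM (-1.27, adjusted p = 0.0049), with a wide spread among the siCyclin K#1 libraries, while IFITM3 rose from 4.82 ± 0.240 to 9.75 ± 1.33.

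Named classes of non-coding RNA were described in the same way. Of 280 LINC-named RNAs 61 rose and 38 fell (median 0.27, 0.15 at a mean of at least 1 FPKM and 0.09 with a pseudocount of 1), with LINC01468 (6.98 ± 0.430 to 1.05 ± 0.130 FPKM) and LINC00973 (3.29 ± 0.258 to 0.580 ± 0.171) lower and LINC00857 (0.901 ± 0.272 to 4.66 ± 0.164) higher. Of 571 antisense RNAs by name 109 rose and 43 fell (median 0.12, -0.04 under quantile normalization, -0.11 at a mean of at least 1 FPKM and 0.03 with a pseudocount of 1), with NRSN2-AS1 from 0.794 ± 0.259 to 5.71 ± 0.471 FPKM, and CD44-AS1 (3.75 ± 0.568 to 0.672 ± 0.198) and VPS9D1-AS1 (4.16 ± 0.180 to 0.887 ± 0.256) lower. Whether the counting used the strand is not stated, so that an antisense RNA and its sense partner may not be told apart. The row of RMDN2-AS1 also holds CYP1B1, a cytochrome of the aryl hydrocarbon response, and rose from 6.78 ± 0.578 to 46.8 ± 9.61 FPKM. By annotated type, the median level was 4.81 FPKM for protein-coding genes and 0.236 FPKM for 1287 lincRNAs, of which 17.9% rose and 9.17% fell. Processed pseudogenes were the only type with 100 or more tested genes whose median was negative as deposited (-0.06), and 6.54% of 2140 rose and 11% fell. Medians of snRNAs (0.005), miscellaneous RNAs (0.01) and snoRNAs (0.03) were positive but below that of all genes (0.10). Since median-ratio rescaling moved the latter to 0.0009 and the types were not rescaled, the signs depend on the scaling.

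The length of the gene on the chromosome, introns included, went with the direction of change across protein-coding genes. Of 2258 genes under 10 kb 25.8% rose and 31.1% fell, with a median log2 fold change of -0.04. The median was 0.10 for 3224 genes from 10 to 30 kb, 0.13 for 3761 from 30 to 100 kb and 0.32 for 1656 from 100 to 250 kb. Of 576 genes over 250 kb 61.3% rose and 10.9% fell, with a median of 0.53. The order was kept among genes with a mean of at least 1 FPKM (from -0.11 to 0.50), with a pseudocount of 1 (from -0.02 to 0.30) and under median-ratio rescaling (from -0.14 to 0.42). The values are given as a description, since genes are not replicates, and the median levels of the 5 classes were 4.29, 5.09, 5.49, 4.59 and 2.52 FPKM, lowest in the longest class. PCDH9, which spans chromosome 13 from 66302834 to 67230445, and THSD7A, on chromosome 7 from 11370357 to 11832198, are in the class over 250 kb. The spans of the adhesion and guidance lists were not compared. With siCyclin K#2, against the same scrambled libraries, the medians of the 5 classes were -0.12, 0.04, 0.07, 0.20 and 0.35.

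**Figure D4:**
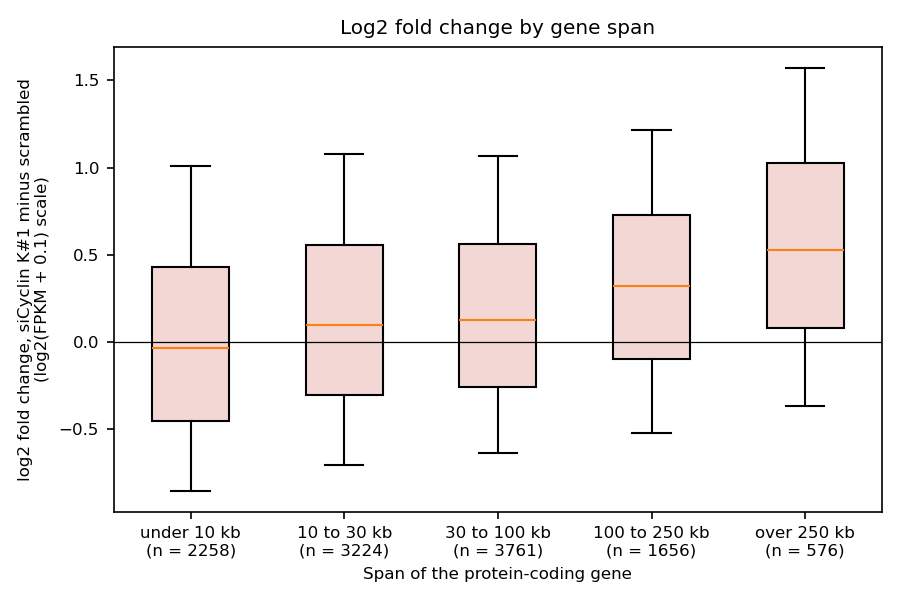
Log2 fold change of siCyclin K#1 minus scrambled for protein-coding genes in 5 classes of gene span; boxes show the quartiles and the median, and whiskers run from the 10th to the 90th percentile of genes. The median rises from -0.04 under 10 kb to 0.53 over 250 kb.

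Several of the genes that fell, and some that rose, carry the letters that pair with the seed of siCyclin K#1. The motif GTGATAA was looked for on the mRNA strand in the longest annotated 3′ UTR (the part of an mRNA after its stop codon) of 11307 tested protein-coding genes in GENCODE 29, and 1204 of them (10.6%) held it at least once. The following stretches of 21 bases, written 5′ to 3′ with the 7 seed-matching bases in capitals, are aligned as in the CCNK site and stand for named genes that fell by 1.5 or more on the log2 scale.

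DCP2, first site (chr5:113015873-113015893, plus strand): ttgaggaaatcaaGTGATAAa
DCP2, second site (chr5:113020214-113020234, plus strand): ctttagagtaaatGTGATAAc
RNF182 (chr6:13979808-13979828, plus strand): tataatgtctacaGTGATAAa
NDUFA5, first site (chr7:123541666-123541686, minus strand): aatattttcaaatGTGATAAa
NDUFA5, second site (chr7:123541642-123541662, minus strand): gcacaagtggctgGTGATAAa
MSMO1 (chr4:165342041-165342061, plus strand): ttctggctactaaGTGATAAa
IDI1, first site (chr10:1040838-1040858, minus strand): tttttagtaggctGTGATAAa
SLC7A11 (chr4:138171852-138171872, minus strand): aattacaactttgGTGATAAa
CXCL5 (chr4:73995956-73995976, minus strand): agaataggattctGTGATAAt
GNB4 (chr3:179396630-179396650, minus strand): gtaaaatacagttGTGATAAa
DBF4 (chr7:87908178-87908198, plus strand): atacttttcagaaGTGATAAg
TAP1 (chr6:32845427-32845447, minus strand): ttccaagctcctcGTGATAAt
EREG (chr4:74385206-74385226, plus strand): gttcctcaaatcaGTGATAAt

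Coordinates are of GRCh38, and every site lies in the last exon of the transcript searched. The remaining site of NDUFA5, the second of IDI1 and the site of CCNE2 are not shown. Genes with 0 matches had a median log2 fold change of 0.16 with siCyclin K#1, those with 1 match -0.09, with 2 matches -0.09 and with 3 or more -0.25 (10103, 1047, 131 and 26 genes). With siCyclin K#2 the medians of the same classes against scrambled were 0.06, 0.04, -0.03 and 0.23. Of the genes with a match 39.6% fell and 26.4% rose at an adjusted p under 0.05, and of those without it 22.3% fell and 39.6% rose. UTRs with matches are longer (a median of 3258 against 1204 bases), so the classes were also set side by side within ranges of length. The medians with and without a match were -0.22 and 0.08 for UTRs from 50 to under 500 bases, -0.30 and 0.16 from 500 to under 1500, -0.17 and 0.20 from 1500 to under 3000, and 0.001 and 0.18 for 3000 bases or more.

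Of 155 genes called lower in this set 44 held a match (28.4%), against 20 of 471 called higher (4.25%) and 10.7% of those not called. Where the base after the match was an A, as in CCNK, the median was -0.19 (473 genes), and -0.06 without it (731 genes). With the 3′ UTR of the transcript with the longest coding region the medians for 0, 1, 2 and 3 or more matches were 0.16, -0.15, -0.12 and -0.32, and with a mean of at least 1 FPKM 0.13, -0.18, -0.18 and -0.30. Among the 12 largest falls CXCL5, DCP2 and RNF182 held a match, while CSF2, IL11, IGFN1, NT5E, CA9, PHLDA2, FOSL1, PPIF and the 3′ UTR of CCNK held 0. EPHA2, WWTR1, TEAD1, DUSP4, SPRY4 and CCND1 also held 0 in the longest annotated 3′ UTR. Named genes that rose held matches too, with 3 in PCDH9 (3.19 on the log2 scale, a 3′ UTR of 24327 bases) and 1 in EPHA5 (3.52). The matches are a description, and whether pairing with the guide takes part in any of these falls was not tested.

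**Figure D5:**
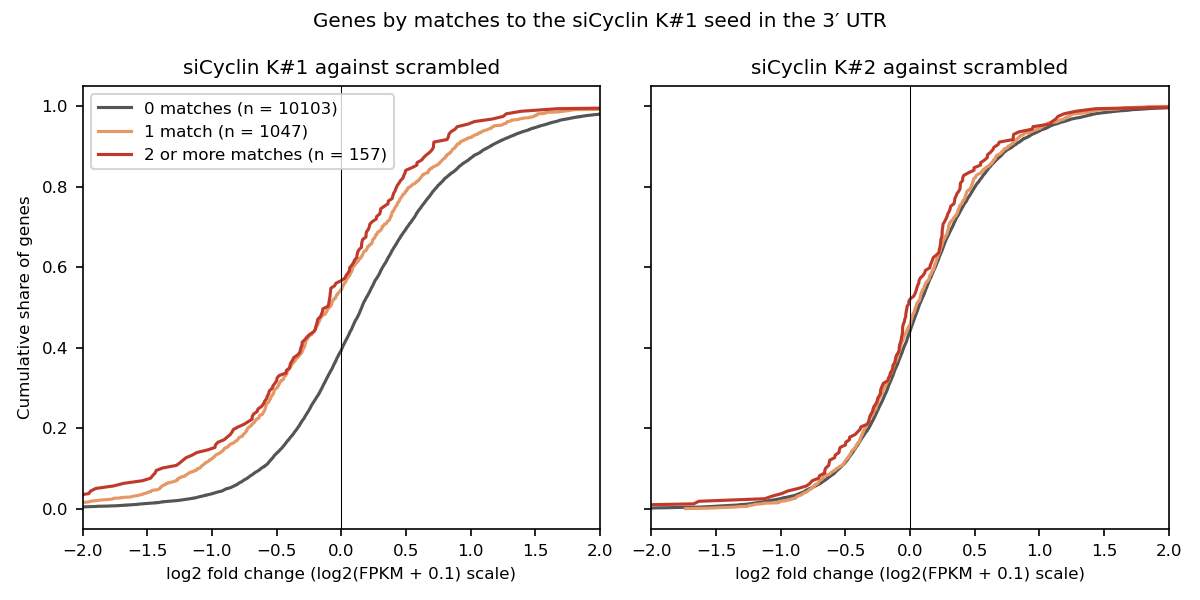
Cumulative share of genes (vertical axis) below a log2 fold change (horizontal axis) against scrambled, for genes with 0, 1 and 2 or more matches to the siCyclin K#1 seed in the 3′ UTR. With siCyclin K#1 (left) the curves with matches lie to the left of the curve without, at medians of -0.09 for 1 match against 0.16 for 0; with siCyclin K#2 (right) these medians are 0.04 and 0.06.

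Compared directly rather than through the scrambled libraries, the siRNAs differed at an adjusted p under 0.05 in 6191 of the 21048 genes (29.4%). Of the 983 genes called against scrambled 607 also differed from siCyclin K#2, as did 156 of the 206 genes chosen by the rule for named genes. Both sets were chosen largely on siCyclin K#1 values that enter this test, and some named genes on the difference itself. Shares above the 29.4% of all genes are therefore partly built in and carry no further meaning. CCNK did not pass (-2.97 and -2.92 against scrambled, difference -0.06 with a 95% interval of ± 0.22, adjusted p = 0.73). The genes of the mitosis, hypoxia and p53 lists had other medians with siCyclin K#2, 0.17, 0.22 and 0.01 in place of -0.22, -0.37 and 0.55, with both sets of values taken against the same scrambled libraries. The list of homologous recombination, the Fanconi pathway and break repair had a median of -0.03 with siCyclin K#2 in place of -0.26, and DNA replication and S phase 0.04 in place of -0.22. G1 cyclins, CDKs and CDK inhibitors were alike, at -0.19 and -0.20. Ribosomal proteins had a median of -0.48 with each siRNA. Among single genes, BTG2 had 6.06 ± 0.399 FPKM with siCyclin K#2, and siCyclin K#1 was 2.04 higher on the log2 scale. HMOX1 had 24.4 ± 1.24 FPKM, ATP5MD 52.7 ± 0.955, EPHA2 40.3 ± 3.19, RNF182 11.2 ± 0.970, WWTR1 39.6 ± 1.57 and RBBP8 9.65 ± 0.880 FPKM, each different from siCyclin K#1 at an adjusted p under 0.05. For RPL26L1 (36.9 ± 1.19 FPKM), CDK12 (18.4 ± 2.14), CDKN1B (16.2 ± 1.14), TPM4 (61.2 ± 16.0) and CENPF (53.8 ± 0.778) the difference did not pass, with adjusted p-values of 0.96, 0.41, 0.25, 0.11 and 0.2 and differences of -0.01, 0.10, 0.10, 0.65 and -0.07.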

How the data were processed

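RNA-seq of A549 cells 48 h after transfection with 50 nM siRNA was analysed in 9 libraries, of which 3 scrambled and 3 siCyclin K#1 libraries were compared. The authors sequenced total RNA and deposited FPKM values per library for 56252 features, estimated with StringTie 1.3.3b per the labels; the aligner, the annotation release and the strand setting are not given in the sources used here. Of the features, 25125 carried no reference gene. Rows of one gene were summed (47 genes), and 1344 units that join several genes were kept under their joined names. Of 29736 single-gene units 29695 were found in GENCODE 29 and 29253 of these had identical coordinates, so that GENCODE 29 gave positions, gene types and sequences.

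Values were tested as log2(FPKM + 0.1) with limma 3.58.1 (R 4.3.3; trended empirical Bayes, 9 libraries in 3 groups) and Benjamini-Hochberg adjustment; genes needed 0.1 FPKM in at least 3 of 9 libraries. FPKM times annotated exon length gave whole reads (tolerance 0.05) for 85.05% of values above 0, and 14788 genes entered limma-voom as an alternative. These reads rest on an assumed length, and the depth estimates share that limit. Replicates differed by more than sampling noise (chi-square per degree of freedom 12.14 to 16.53 within groups). A single value, CCNK, was also tested by an exact permutation test (scipy 1.17.1). The other alternatives changed the pseudocount, the filter, the scaling, the fold threshold, the variance model, the replicate block and the libraries used.

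The comparison, its gene lists and the rule for named genes were chosen with earlier results of these data known. The rule took the genes that the study names, the 12 largest rises and falls among called protein-coding genes at a mean of at least 1 FPKM whose row holds 1 gene, the 6 largest changes of FPKM in each direction, genes switched on or off, at most 4 genes per list by fold change (genes at 1 FPKM or more first), members behind counts of 5 or fewer, and the 4 genes of each direction that differed most between siRNAs of opposite effect. Other members were named after their values were seen. Some genes that this rule takes are not reported here. Figures were drawn with matplotlib 3.10.9.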

Additional observations from a re-analysis of the deposited data

Results flagged for a closer look

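The siRNAs against Cyclin K differed from each other in 322 genes at more than 3-fold and a raw p below 0.01 by limma. Among 4915 genes at a mean of at least 1 FPKM that passed an adjusted p under 0.05 with each siRNA, 364 moved in opposite directions, and the 8 with the widest gaps are given here because the effects of the siRNAs differed by a test of the difference itself. They were chosen for that gap, so their values are a description.

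SCG3 was 5.48 higher on the log2 scale with siCyclin K#1 than with siCyclin K#2, with means of 4.78 and 0.00947 FPKM around a scrambled mean of 0.126. UNC13A, a priming factor of synaptic vesicles, was 3.85 higher, with 4.36 and 0.216 FPKM (scrambled 0.458). SCG3 and UNC13A reached the mean of 1 FPKM only through siCyclin K#1. The fall of SCG3 with siCyclin K#2 lies near the pseudocount of 0.1 and starts from few reads. SNN was 2.51 higher, with 10.5 and 1.76 FPKM (scrambled 5.16). SNAP25, a subunit of the neuronal vesicle fusion complex, was 2.32 higher, with 5.30 and 0.982 FPKM (scrambled 1.37). SCG3, UNC13A and SNAP25 encode proteins of regulated secretion.

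CA9 had a log2 difference of -3.71 between siCyclin K#1 and siCyclin K#2, with means of 1.14 and 16.0 FPKM around a scrambled mean of 9.56. IGFBP1, a hypoxia-responsive binding protein of insulin-like growth factors, had a difference of -2.90, with 6.59 and 50 FPKM (scrambled 12.3). The ligand gene EREG had a difference of -2.42, with 2.27 and 12.8 FPKM (scrambled 7.56). GLE1, an mRNA export factor, had a difference of -2.27, with 2.49 and 12.3 FPKM (scrambled 4.49).

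Signal also lay in assembled loci without a reference gene, which the comparisons above leave out. Of 19541 such loci tested in the same way 1395 were called, 693 higher with siCyclin K#1 and 702 lower.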

How the results depend on the processing

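The log2 fold change of CCNK kept its direction and an adjusted p under 0.05 in every alternative that tested it, but CCNK was not among the genes with recovered reads. Against 983 called genes (671 higher, 312 lower), there were 336 (229 and 107) with a pseudocount of 0.5, 200 (134 and 66) with a pseudocount of 1, 474 (330 and 144) among genes with a mean of at least 1 FPKM, and 2813 (1901 and 912) at a fold change over 2. The pseudocounts shrink ratios of low genes by construction. With 1 library left out at a time 973 to 1007 were called (658 to 702 higher, 294 to 341 lower), and 8584 to 8721 genes, against 9435, had an adjusted p under 0.05. limma-voom on recovered reads called 1200 and gave 5670 genes such an adjusted p, over the 14788 genes it could test; fewer genes were tested there and with the mean of at least 1 FPKM. Of 206 named genes 156 differed between the siRNAs, 147 to 157 with 1 library left out, and 88 of the 117 that limma-voom could test. With the replicate block 974 genes were called, 955 of them also without it, and 9062 had an adjusted p under 0.05. Deviations of libraries with the same number correlated at -0.03, -0.07 and -0.02, and 0 of 3 numbers matched best with themselves. No pairing by number was detected, which does not show that libraries with the same number were prepared apart. Of 205 named genes besides CCNK 196 stayed on the same side of an adjusted p of 0.05 in all alternatives that tested them. The fold threshold had no part in this count, and limma-voom could test only 117 named genes. Many of the named genes were chosen for an adjusted p under 0.05 in the main fit, so that this count is partly built in. FTL changed sign under quantile normalization (0.0217), and the cause was not tested. Depth limits the ratios of the 494 called genes with a mean under 1 FPKM.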
